A study of Mus musculus with 25 samples.

Results

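The 34 genes described here encode the enzymes and carriers of glycolysis and the components of the cellular response to low oxygen. They were taken by symbol from a table of 35741 gene symbols measured in mouse bone marrow neutrophils, and the choice was made with earlier results of these data known. All 34 were in the table and all 34 passed the filter on low counts, as did 16206 genes in all. The genes fell into 8 roles: 2 glucose carriers, 3 hexokinases, 7 enzymes of the upper part of glycolysis, 5 of the lower part, 3 genes of lactate and pyruvate disposal, 2 enzymes that make or break down fructose 2,6-bisphosphate, 3 genes of oxygen sensing and 9 genes known as targets of the hypoxia-inducible factor.

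Glycolysis splits glucose into pyruvate and makes ATP without oxygen. Mature neutrophils have few mitochondria and draw most of their ATP from it, turning the pyruvate into lactate that leaves the cell. The factor HIF-1 joins the alpha subunit encoded by Hif1a to a constant partner. Prolyl hydroxylases such as those encoded by Egln1 and Egln3 use oxygen to mark the alpha subunit for destruction, so HIF-1 gathers when oxygen is scarce, and also in activated myeloid cells. HIF-1 binds short DNA elements near genes of glucose uptake, glycolysis, mitophagy and collagen modification and raises their transcription.

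The libraries were bulk messenger RNA sequencing of neutrophils collected where the 68% and 78% Percoll layers meet, from female C57BL/6J mice 6 to 13 weeks old. Groups combined germline loss of Ripk3 (label Ripk3-/-), the kinase that starts necroptosis, germline loss of Mlkl (Mlkl-/-), the pore-forming effector of necroptosis, and deletions marked ∆PMN of Ptpn6, which encodes the phosphatase SHP-1, and of Casp8, which encodes the apoptotic protease caspase-8. They are written here as KO for germline loss, Ripk3/Mlkl KO for loss of both, and cKO for ∆PMN, PMN being the usual short form of polymorphonuclear cells. The Cre driver behind ∆PMN is not given in the sources used here. There were 3 libraries each of wild type, Ripk3 KO, Mlkl KO, Ripk3 KO Ptpn6 cKO and Ripk3/Mlkl KO Ptpn6 cKO. There were 2 libraries each of Ripk3/Mlkl KO, Mlkl KO Ptpn6 cKO, Ripk3/Mlkl KO Casp8 cKO Ptpn6 cKO and Mlkl KO Casp8 cKO Ptpn6 cKO. Another group, Casp8 cKO Ptpn6 cKO, had 1 library and was the 1 library labelled inflamed. No group carried the Ptpn6 deletion without a second altered gene, so Ptpn6 loss could be compared only within Ripk3 KO, Mlkl KO and Ripk3/Mlkl KO. The labels do not say that the replicates of a group were separate mice, and the p-values measure the spread between these libraries.

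Library totals of estimated counts lay between 21598063 and 23187557. All 15 neutrophil markers were detected in every library, and no marker of the 10 other cell types listed was at 0 in all libraries. Levels are given as CPM, counts scaled to library size and composition. Ptpn6 was at 119 to 315 CPM in the 13 libraries with the deletion and 487 to 706 in the 11 without it. Ripk3 was at or below 0.153 CPM in its knockouts and at or above 2.51 CPM elsewhere, whereas the ranges of Mlkl (0.232 to 1.64 against 1.40 to 4.72 CPM) and of Casp8 (16.3 to 23.8 against 21.03 to 36.9 CPM) overlapped. In bulk RNA, fewer cells of a type and less RNA per cell cannot be told apart.

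A stretch of promoter is shown for 4 of the 34 genes, because they were the ones that passed the test for any difference among the 9 groups given further on. HIF-1 is known to bind the core ACGTG or GCGTG. The search took both spellings on both strands (so also CACGT and CACGC) in the 250 bases before each gene's start in RefSeq promoters on GRCm38.p6, and capitals mark the matches. The stretches run 5′ to 3′ on the gene's own strand: Slc2a1 at chr4:119108495-119108744, plus strand; P4ha1 at chr10:59323046-59323196, plus strand; Pfkl at chr10:78009808-78010057, minus strand; and Aldoc at chr11:78322823-78323072, plus strand.
Slc2a1: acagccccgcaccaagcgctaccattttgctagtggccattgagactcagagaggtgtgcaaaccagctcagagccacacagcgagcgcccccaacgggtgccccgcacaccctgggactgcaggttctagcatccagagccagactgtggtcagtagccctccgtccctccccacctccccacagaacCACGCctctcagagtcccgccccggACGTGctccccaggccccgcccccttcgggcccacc
P4ha1: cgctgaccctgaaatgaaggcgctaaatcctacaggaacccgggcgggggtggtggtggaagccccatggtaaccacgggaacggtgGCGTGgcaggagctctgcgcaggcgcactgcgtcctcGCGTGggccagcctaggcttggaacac
Pfkl: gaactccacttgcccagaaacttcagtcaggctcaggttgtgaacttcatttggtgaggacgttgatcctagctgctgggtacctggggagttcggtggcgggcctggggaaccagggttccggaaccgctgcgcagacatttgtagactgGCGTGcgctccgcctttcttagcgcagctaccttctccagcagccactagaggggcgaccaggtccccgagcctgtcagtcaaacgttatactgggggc
Aldoc: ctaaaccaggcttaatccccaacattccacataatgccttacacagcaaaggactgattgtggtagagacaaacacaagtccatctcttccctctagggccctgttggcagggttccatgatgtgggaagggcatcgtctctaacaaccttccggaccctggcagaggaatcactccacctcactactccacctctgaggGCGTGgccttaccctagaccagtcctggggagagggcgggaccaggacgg
The Slc2a1 stretch held CACGC from 61 to 57 bases and ACGTG from 36 to 32 bases before the start, and it overlaps the predicted gene Gm52706. P4ha1 held GCGTG from 163 to 159 and from 126 to 122 bases before the start, counted from the end of its full 250-base window. Its stretch is the 151 bases of the window that lie outside annotated transcripts, so these distances do not run from the stretch's end. The part of the window not printed held CACGT from 16 to 12 bases before the start. Pfkl held GCGTG from 99 to 95 bases and Aldoc GCGTG from 50 to 46 bases before the start. Of the 34 genes, 32 had a window (not Bnip3l or Slc2a3), and 30 of the 32 (93.8%) held a match in at least 1 window. All 8 hypoxia targets with a window did. Counted by window, 39 of 50 windows of the 34 genes (78.0%) held a match, against 38.6% of the 32851 windows of all genes. By gene, 56.2% of the 11754 tested genes with a window held one. The E-box CACGTG, which contains the core and is known as a site of other factors too, was in 10.0% of the 34 genes' windows and in 6.0% of all windows. A match is a run of letters and shows no binding.

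In wild-type neutrophils the levels of the 34 genes spanned more than 3 orders of magnitude. Levels between genes are compared as CPM per kilobase of exon, means ± SD over 3 libraries. Gapdh, which oxidises glyceraldehyde 3-phosphate, was highest at 1449 ± 136, followed by Pkm, the last step of glycolysis, at 677 ± 68.01 and Gpi1, glucose phosphate isomerase, at 500.4 ± 40.1. The ranges of Gapdh and Pkm did not overlap. Eno1 (enolase, 309), Aldoa (aldolase A, 290.1) and Slc2a3 (the high-affinity glucose carrier GLUT3, 255) came next, and their spreads overlapped with those of their neighbours in that order. GLUT3 messenger was thus well above that of GLUT1 (Slc2a1, 17.2 ± 1.02), and among hexokinases Hk3 (219 ± 22.2) was above Hk1 (25.98) and Hk2 (16.3). Among phosphofructokinase subunits Pfkp (14.5) was above Pfkl (5.70), and Pfkm, the muscle form, was near the floor at 0.556. The lowest was Aldoc, the brain form of aldolase, at 0.441 ± 0.123, which rested on 24 to 97 estimated counts per library over the whole series. The 16 glycolytic enzymes together took 1.01% ± 0.0354 (SD, n = 3) of wild-type counts, and the 9 hypoxia targets took 0.0605% ± 0.00395 (SD, n = 3).

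**Figure D1:**
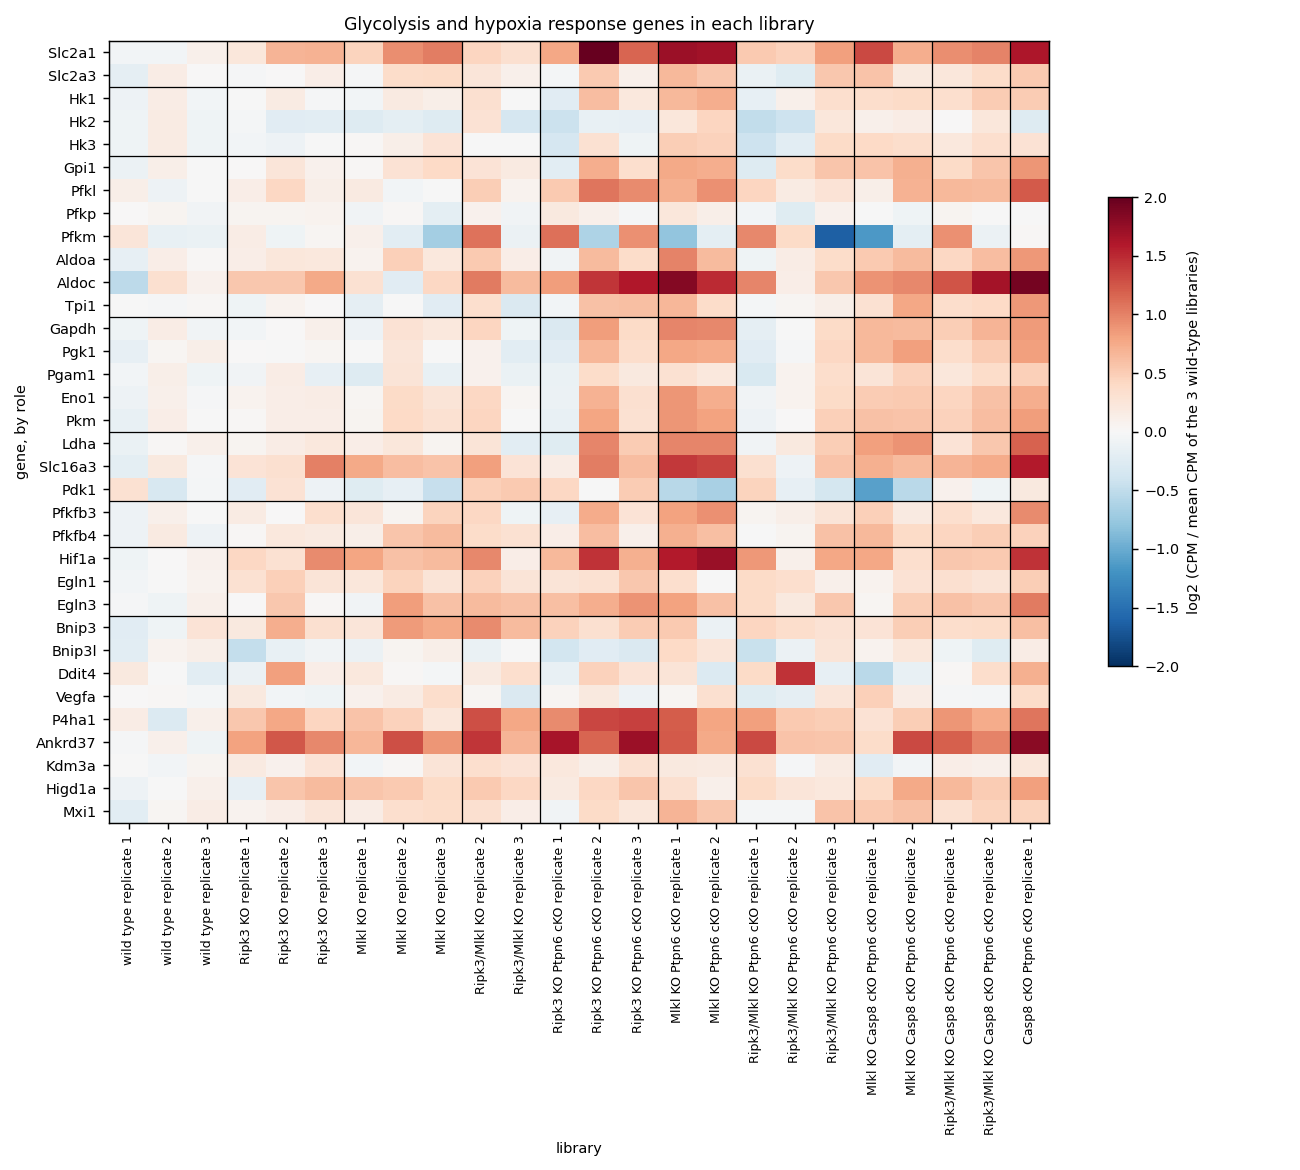
Each of the 34 genes (rows, by role) in each of 24 libraries (columns, by group) as log2 of CPM over the mean of the 3 wild-type libraries, with colour capped at 2 in either direction. The columns of Mlkl KO Ptpn6 cKO, of Ripk3 KO Ptpn6 cKO replicate 2 and of the inflamed library are the reddest through the enzyme rows, and the Slc2a1, Hif1a, P4ha1 and Ankrd37 rows are red in every library other than wild type.

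Across the 9 replicated groups, 4 of the 34 genes passed edgeR's quasi-likelihood F test for any difference at an adjusted p under 0.05, against 1.58% of all genes tested. They were Slc2a1 (adjusted p = 0.0219), P4ha1 (0.0249), Aldoc (0.0278) and Pfkl (0.0380). Hif1a followed at 0.0505, then Pgk1 at 0.0808, Slc16a3 at 0.0847 and Pdk1 at 0.0908. At an unadjusted p under 0.05 there were 20 of the 34, against 22% of all genes, and DESeq2 called 18, with 16% of all genes. The calls rested on single libraries. Slc2a1 passed in 18 of 23 fits that left out 1 library, P4ha1 in 19, Aldoc in 16 and Pfkl in 10. None of the 34 passed without any 1 of the wild-type libraries, and 1 passed without either Mlkl KO Ptpn6 cKO library. Calls over all genes moved with the same libraries: without a wild-type library 0.341% to 0.402% of all genes passed, and without a Mlkl KO Ptpn6 cKO library 0.924% and 0.45%. Without Ripk3/Mlkl KO Ptpn6 cKO replicate 3, 20 of the 34 passed and 20.5% of all genes. Leaving out Ripk3 KO Ptpn6 cKO replicate 1 gave 11 (5.51% of all genes), without replicate 2 of that group 9 (3.58%) and without its replicate 3 it was 2 (0.854%). The number was 2 without Mlkl KO replicate 2 (0.735%), and 2 as well without the second library of Ripk3/Mlkl KO Casp8 cKO Ptpn6 cKO (0.805%). Reads of some of these genes are shared with near-identical sequences. Estimates that were not whole numbers (beyond a tolerance of 0.01) were found in all 25 libraries for Gpi1, Pfkl, Eno1, Pfkfb4 and Vegfa and in 24 for Gapdh, Ldha, Pdk1 and Pfkfb3, so the values of these genes are less certain.

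In Mlkl KO neutrophils, 2 glycolytic genes, Aldoc and Pfkl, passed adjustment as higher with the Ptpn6 deletion. Neither passed in any of the 5 fits without 1 library. Most of the other enzymes lay higher there without passing adjustment. In Ripk3 KO and in Ripk3/Mlkl KO neutrophils none of the 34 was called, and the test of a difference between the 3 backgrounds called none of them with edgeR and 1, P4ha1, with DESeq2. Below, called means an adjusted p under 0.05 with edgeR unless DESeq2 is named. Neutrophil markers lay higher in Mlkl KO after Ptpn6 loss too, 14 of 15 of them above 0 with a median of 0.58. Of the summed levels of 11 cell type lists, 3 stood higher there without overlap, those of neutrophils, of monocytes (1039 to 1077 against 1530.3 to 1534 CPM) and of basophils and mast cells (1019 to 1592 against 2194 to 2359 CPM). Summed B cell markers stood lower (803 to 1233 against 534 to 552 CPM). Macrophage markers had 0 of 10 above 0 in all 3 backgrounds, with medians of -1.38 (Ripk3/Mlkl KO), -1.23 (Mlkl KO) and -0.82 (Ripk3 KO). Averaged over backgrounds, 2 were called lower. Ripk3 KO had 7 of 9 monocyte (median 1.00) and 7 of 8 immature granulocyte markers (median 0.95) above 0. All sums in Ripk3 KO overlapped. Erythroid markers in Ripk3/Mlkl KO had 0 of 14 above 0. Their sum stood lower without overlap (5034 to 10476 against 2463 to 5021 CPM). The part of cell content in the differences of the 34 genes was not tested. In Mlkl KO, Aldoc rose by 1.48 (SE 0.298, adjusted p = 0.0271) on the log2 scale and Pfkl by 0.76 (SE 0.178, adjusted p = 0.0431), which made 2 of 34 genes called with edgeR, against 1.51% of all genes. At an unadjusted p under 0.05, 18 of 34 were higher and 0 lower, against 8.86% and 8.63% of all genes, and DESeq2 called 9, with 4.72% of all genes. In Ripk3 KO, edgeR called 0 of 34 (0.0185% of all genes), with 6 of 34 at an unadjusted p under 0.05 (5.5% of all genes), all higher (2.77%), and 0 called by DESeq2. In Ripk3/Mlkl KO, edgeR called 0 of 34 (0.00617% of all genes), with 2 of 34 at an unadjusted p under 0.05 (5.12% of all genes), both lower (2.81%), and 0 called by DESeq2. The median log2 difference of the 34 was 0.42 in Mlkl KO (all genes -0.04), 0.18 in Ripk3 KO (all genes 0.0024) and -0.08 in Ripk3/Mlkl KO (all genes 0.03). The numbers of the 34 above 0 were 27, 31 and 7, against 45.8%, 50.4% and 54.1% of all genes.

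Averaged over the 3 backgrounds, 29 of 34 lay above 0 (50.2% of all genes) and 2 of 34 were called with edgeR, against 1.55% of all genes: Pfkl at 0.46 (SE 0.101, adjusted p = 0.0281) and Slc2a1 at 0.67 (SE 0.151, adjusted p = 0.0324). Aldoc (0.64 (SE 0.168), adjusted p = 0.0616) and Ldha (0.45 (SE 0.130), adjusted p = 0.0846) came next. At an unadjusted p under 0.05 there were 12 higher and 1 lower (Bnip3, -0.28), against 7.29% and 8.26% of all genes. When the difference between backgrounds was itself tested, edgeR called 0 of 34 and 0% of all genes, with 9 of 34 at an unadjusted p under 0.05 (6.5% of all genes) and DESeq2 called P4ha1 alone (adjusted p = 0.0493, 0.197% of all genes). P4ha1 also had the smallest p of the 34 with edgeR (0.00140, adjusted 0.548), then Aldoc (0.00237, adjusted 0.548).

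**Figure D2:**
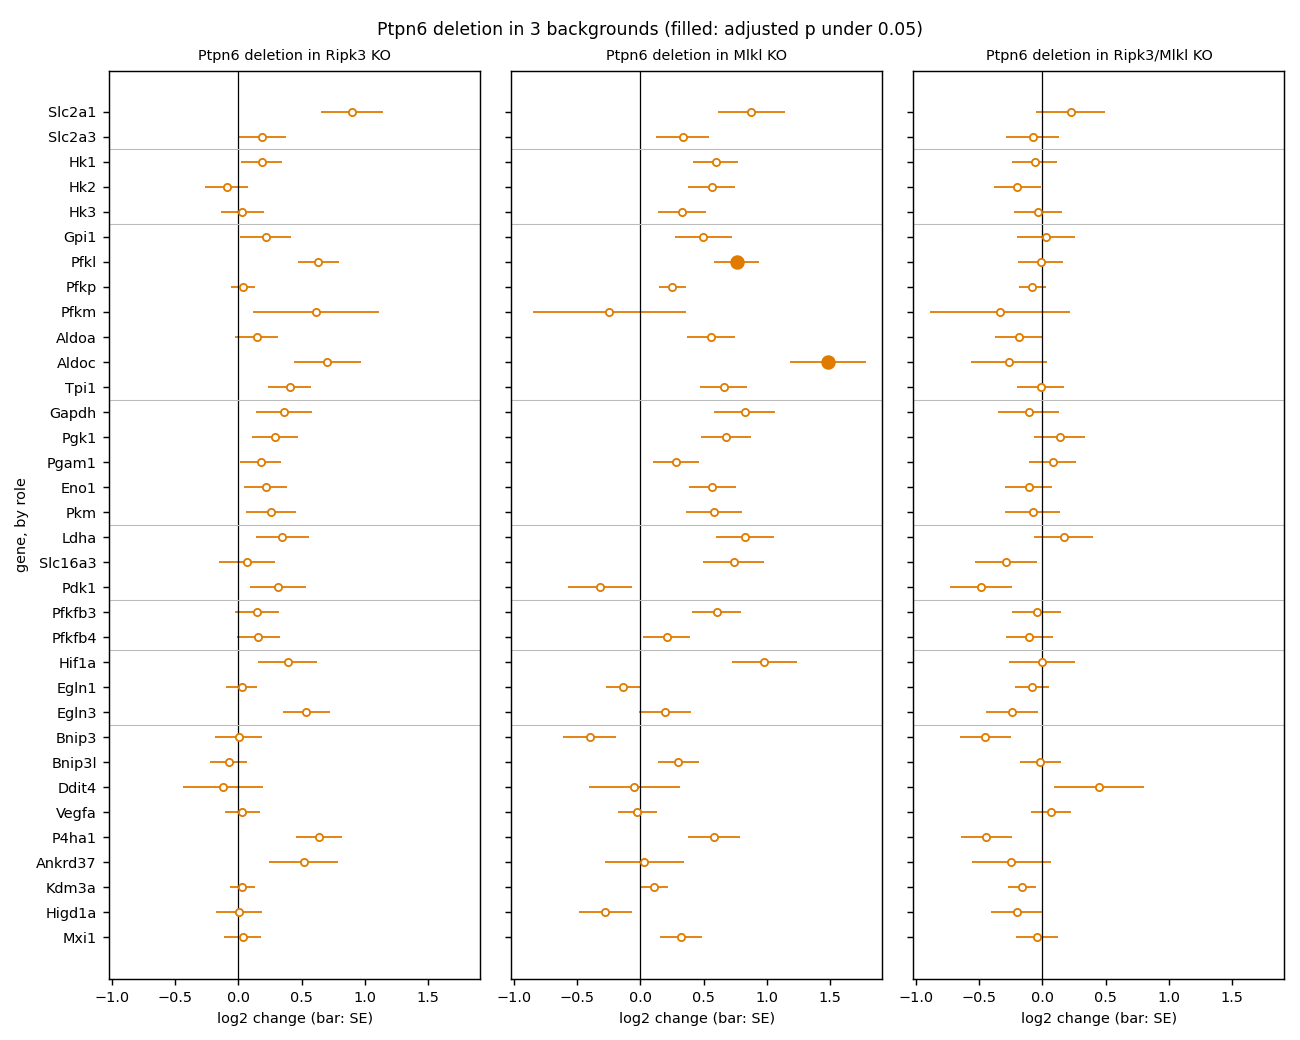
Log2 difference between libraries with and without the Ptpn6 deletion for each gene (rows, by role) in 3 backgrounds, with bars for the SE and filled points for an adjusted p under 0.05. The filled points are Aldoc at 1.48 and Pfkl at 0.76 in Mlkl KO, where 27 of 34 points lie right of 0, and 27 of 34 lie left of 0 in Ripk3/Mlkl KO.

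Glucose carriers bring the sugar into the cell. Slc2a1, which encodes the carrier GLUT1, measured 54.1, 54.2 and 59.9 CPM in wild type, 65.9, 89.5 and 90.6 in Ripk3 KO, 76.3, 106 and 113 in Mlkl KO, with 75.9 and 70.2 in Ripk3/Mlkl KO. Deletion libraries gave it 95.7, 239 and 126 in Ripk3 KO, 183 and 180.2 in Mlkl KO, with 80.7, 76.9 and 99.4 in Ripk3/Mlkl KO. In each of the 3 backgrounds every deleted library was above every library with intact Ptpn6, the library with conflicting labels left aside. In Ripk3/Mlkl KO that rested on 2 intact libraries. The library with conflicting labels, titled Ripk3/Mlkl KO and at 583 CPM of Ptpn6, had 87.3 CPM of Slc2a1, above the deleted libraries at 80.7 and 76.9. Among the assigned libraries, Slc2a1 was the only one of the 34 that stood apart in all 3 backgrounds. The log2 differences were 0.90 (SE 0.243), 0.88 (SE 0.266) and 0.22 (SE 0.272), and edgeR called only their average. DESeq2 also called the difference in Mlkl KO (0.90, adjusted p = 0.0401). With only the libraries compared, edgeR called that in Mlkl KO (adjusted p = 0.0258) and not the average (adjusted p = 0.0984). The averaged call was lost, at adjusted p between 0.0540 and 0.138, without any 1 of the Ripk3 KO libraries, Mlkl KO replicate 2, Mlkl KO Ptpn6 cKO replicate 2 or either Ripk3/Mlkl KO library. Without Ripk3 KO Ptpn6 cKO replicate 1, the difference in Ripk3 KO was called as well, at 1.14 (adjusted p = 0.0193). Slc2a3, the GLUT3 carrier, measured 890.5, 1117 and 1017 CPM in wild type, 988, 1011 and 1099 in Ripk3 KO, 992, 1305 and 1310.3 in Mlkl KO, with 1189.5 and 1077 in Ripk3/Mlkl KO. Its values after Ptpn6 deletion were 986, 1456 and 1086 in Ripk3 KO, 1581 and 1458 in Mlkl KO, with 921, 848 and 1466 in Ripk3/Mlkl KO. Its groups stood apart in Mlkl KO, by 0.33 (SE 0.211), and overlapped in both other backgrounds.

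Hexokinases phosphorylate glucose and hold it in the cell. Hk3, the most abundant of the 3 in CPM, measured 689.7, 822 and 696 CPM in wild type, 708, 688 and 734 in Ripk3 KO, 747, 801 and 891 in Mlkl KO, with 729 and 732 in Ripk3/Mlkl KO. In deletion libraries it measured 582, 909 and 691 in Ripk3 KO, 1038 and 1009 in Mlkl KO, with 552, 635 and 958 in Ripk3/Mlkl KO. Both Mlkl KO Ptpn6 cKO libraries were above all Mlkl KO libraries, while the other two pairs of groups overlapped. The log2 differences in Mlkl KO were 0.33 (SE 0.190) for Hk3, 0.60 (SE 0.179) for Hk1 and 0.56 (SE 0.184) for Hk2, and edgeR called none, whereas DESeq2 called Hk1 (0.62, adjusted p = 0.0448) and edgeR on only the libraries compared called Hk1 (adjusted p = 0.0401) and Hk2 (0.0423). In Ripk3/Mlkl KO all 3 lay between -0.20 and -0.04.

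In upper glycolysis, which turns glucose 6-phosphate into triose phosphates, 2 of 7 genes were called in Mlkl KO (1.51% of all genes) and 6 of 7 were higher at an unadjusted p under 0.05 (8.86% of all genes). Pfkl, the liver-type subunit of phosphofructokinase, the step that commits sugar to glycolysis, measured 22.96, 19.7 and 21.1 CPM in wild type, 23.3, 28.4 and 22.97 in Ripk3 KO, 24.2, 20.4 and 21.2 in Mlkl KO, with 29.9 and 22.4 in Ripk3/Mlkl KO. After Ptpn6 loss it measured 30.4, 44.5 and 41.1 in Ripk3 KO, 34.9 and 39.8 in Mlkl KO, with 28.7, 23.7 and 25.6 in Ripk3/Mlkl KO. The groups did not overlap in Ripk3 KO or Mlkl KO and overlapped in Ripk3/Mlkl KO, where the difference was -0.02 (SE 0.180). Pfkl in Mlkl KO lost its call without any 1 of the 5 libraries compared, at differences of 0.68 to 0.84 and adjusted p of 0.0673 to 0.448. Scaling by library totals alone gave 0.50 (adjusted p = 0.141). Its averaged difference stayed called in 9 of 16 such fits, and was lost, at adjusted p between 0.0564 and 0.156, without Ripk3 KO replicate 3, Ripk3 KO Ptpn6 cKO replicates 2 or 3, Mlkl KO replicates 2 or 3, Mlkl KO Ptpn6 cKO replicate 2 or Ripk3/Mlkl KO replicate 3. Without Ripk3 KO Ptpn6 cKO replicate 1, the difference in Ripk3 KO was 0.78 (adjusted p = 0.0270).

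Aldoc, the low-abundance aldolase, measured 0.914, 1.63 and 1.39 CPM in wild type, 1.90, 1.90 and 2.22 in Ripk3 KO, 1.62, 1.12 and 1.75 in Mlkl KO, with 2.70 and 2.04 in Ripk3/Mlkl KO. With the Ptpn6 deletion it measured 2.34, 3.54 and 3.97 in Ripk3 KO, 4.70 and 3.71 in Mlkl KO, with 2.59, 1.43 and 1.91 in Ripk3/Mlkl KO. Both libraries of Mlkl KO Ptpn6 cKO were more than 2-fold above each Mlkl KO library, the Ripk3 KO pair stood apart by less, and the Ripk3/Mlkl KO pair overlapped. The call in Mlkl KO was lost without any 1 of the 5 libraries compared, at differences of 1.28 to 1.66 and adjusted p of 0.0584 to 0.403. Gpi1, the most abundant upper enzyme in CPM, measured 1329, 1561 and 1439 CPM in wild type, 1448, 1714 and 1534 in Ripk3 KO, 1469.6, 1754 and 1898 in Mlkl KO, with 1746 and 1641 in Ripk3/Mlkl KO. Deletion libraries gave it 1251, 2392 and 1829.6 in Ripk3 KO, 2446 and 2385 in Mlkl KO, with 1213, 1864 and 2124 in Ripk3/Mlkl KO. Only the Mlkl KO pair did not overlap, by 0.50 (SE 0.225), and the replicates of Ripk3 KO Ptpn6 cKO differed nearly 2-fold among themselves. Aldoa (0.56 (SE 0.190)), Tpi1, triose phosphate isomerase (0.66 (SE 0.186)), and the platelet-type subunit Pfkp (0.25 (SE 0.107)) were also higher in Mlkl KO and were not called with edgeR. DESeq2 called Tpi1 (0.69, adjusted p = 0.0277), as did edgeR on only the libraries compared (adjusted p = 0.0426). Pfkp turned sign under library totals, to -0.0081. Pfkm, at under 4 CPM in all libraries, was at -0.25.

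**Figure D3:**
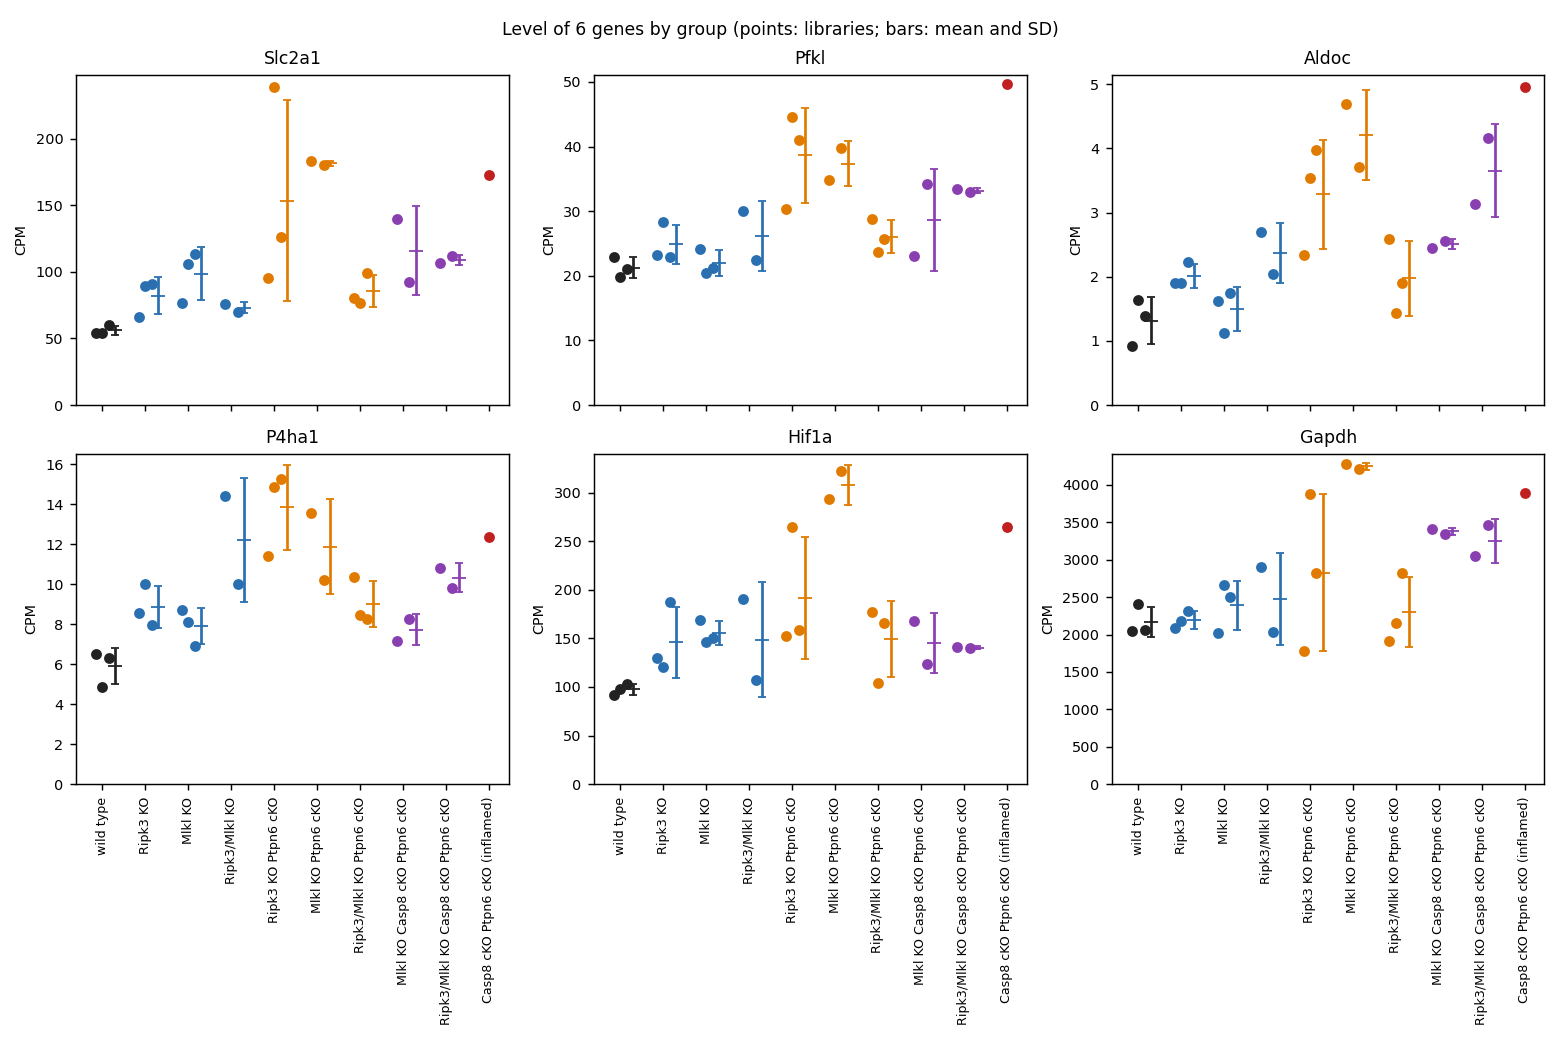
CPM of 6 genes in each library (points) by group, with the mean and SD beside each group of 2 or 3 libraries and the inflamed library as a single point. Slc2a1 and P4ha1 lie above the 3 wild-type points in every other group, and the Gapdh points of Mlkl KO Ptpn6 cKO, at 4280.0 and 4218 CPM, are the highest.

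Lower glycolysis carries triose phosphate to pyruvate and yields the ATP. All 5 of its genes were above 0 in Mlkl KO after Ptpn6 loss, 4 of them at an unadjusted p under 0.05 (8.86% of all genes were higher at that p), and 0 were called with edgeR, while DESeq2 called Gapdh and Pgk1. Gapdh measured 2042, 2402 and 2055 CPM in wild type, 2087, 2180.5 and 2319 in Ripk3 KO, 2023, 2656 and 2497 in Mlkl KO, with 2906 and 2035 in Ripk3/Mlkl KO. Its values after Ptpn6 deletion were 1774, 3879 and 2827 in Ripk3 KO, 4280.0 and 4218 in Mlkl KO, with 1917, 2155 and 2824 in Ripk3/Mlkl KO. The Mlkl KO pair stood well apart, and Ripk3 KO Ptpn6 cKO held both a library below every Ripk3 KO library and a library well above them. The differences were 0.83 (SE 0.241) (adjusted p = 0.0822), 0.36 (SE 0.218) and -0.11 (SE 0.243) in Mlkl KO, Ripk3 KO and Ripk3/Mlkl KO. Pgk1, phosphoglycerate kinase, the first ATP-yielding step, measured 306, 353 and 371 CPM in wild type, 344, 343 and 355 in Ripk3 KO, 342, 406 and 342 in Mlkl KO, with 363 and 295 in Ripk3/Mlkl KO. In deletion libraries it measured 293, 547 and 437 in Ripk3 KO, 587 and 577 in Mlkl KO, with 294, 336 and 459 in Ripk3/Mlkl KO. Again only the Mlkl KO pair did not overlap, by 0.67 (SE 0.198) (adjusted p = 0.0841). Eno1 and Pkm differed there by 0.57 (SE 0.187) and 0.58 (SE 0.219), and Pgam1, phosphoglycerate mutase, by 0.28 (SE 0.182).

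Ldha, the lactate dehydrogenase subunit that favours lactate, was higher by 0.83 (SE 0.229) (adjusted p = 0.0702) in Mlkl KO, 0.35 (SE 0.208) in Ripk3 KO and 0.17 (SE 0.233) in Ripk3/Mlkl KO. Slc16a3, the lactate exporter MCT4, measured 343, 452 and 386 CPM in wild type, 474, 491 and 788 in Ripk3 KO, 664, 602 and 583 in Mlkl KO, with 693 and 474 in Ripk3/Mlkl KO. After Ptpn6 loss it measured 438, 798 and 606 in Ripk3 KO, 1053 and 1007 in Mlkl KO, with 489, 369 and 585 in Ripk3/Mlkl KO. The 2 Mlkl KO Ptpn6 cKO libraries were the highest of the 23 replicated libraries, and the other pairs of groups overlapped. Pdk1, the kinase that shuts pyruvate out of the mitochondrial cycle, went the other way. It measured 11.2, 7.28 and 8.80 CPM in wild type, 7.79, 11.1 and 8.47 in Ripk3 KO, 7.71, 8.09 and 6.58 in Mlkl KO, with 12.6 and 13.04 in Ripk3/Mlkl KO. With the Ptpn6 deletion it measured 12.1, 9.01 and 12.9 in Ripk3 KO, 6.19 and 5.80 in Mlkl KO, with 12.3, 8.12 and 7.09 in Ripk3/Mlkl KO. Its deleted libraries lay below the others in Mlkl KO (-0.32 (SE 0.256)) and in Ripk3/Mlkl KO (-0.49 (SE 0.244)), and overlapped them in Ripk3 KO.

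Both bifunctional enzymes of fructose 2,6-bisphosphate, the activator of phosphofructokinase, were above 0 in Mlkl KO. Pfkfb3, the form with the strongest kinase side, differed by 0.60 (SE 0.192). Pfkfb4 measured 316, 386 and 317 CPM in wild type, 346, 393 and 385 in Ripk3 KO, 369, 501 and 526 in Mlkl KO, with 438 and 418 in Ripk3/Mlkl KO. Deletion of Ptpn6 left Pfkfb4 at 373, 520.5 and 364 in Ripk3 KO, 559 and 517 in Mlkl KO, with 337, 354 and 509 in Ripk3/Mlkl KO. All 3 pairs of groups overlapped.

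Among genes of oxygen sensing, Hif1a measured 91.7, 97.7 and 103 CPM in wild type, 130.1, 120.5 and 188 in Ripk3 KO, 169, 146 and 151 in Mlkl KO, with 190.4 and 107 in Ripk3/Mlkl KO. Deletion libraries gave it 152, 264 and 159 in Ripk3 KO, 293 and 322 in Mlkl KO, with 177, 104 and 166 in Ripk3/Mlkl KO. The Mlkl KO pair did not overlap, with a difference of 0.98 (SE 0.259) (adjusted p = 0.0599) that DESeq2 called, and both other pairs overlapped. Egln1 differed by -0.14 (SE 0.136) in Mlkl KO. Egln3, itself known to be induced by HIF-1, differed by 0.54 (SE 0.188) in Ripk3 KO, where its groups stood apart, 0.19 (SE 0.209) in Mlkl KO and -0.24 (SE 0.208) in Ripk3/Mlkl KO.

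The 9 hypoxia targets outside glycolysis lay near 0 on balance. Their median difference after Ptpn6 loss was 0.03 in Ripk3 KO, 0.03 in Mlkl KO, but -0.16 in Ripk3/Mlkl KO, and the medians of the 5 lower glycolytic genes were 0.26, 0.58 and -0.08. P4ha1, a subunit of collagen prolyl hydroxylase, measured 6.51, 4.85 and 6.29 CPM in wild type, 8.58, 10.02 and 7.95 in Ripk3 KO, 8.71, 8.09 and 6.91 in Mlkl KO, with 14.4 and 10.02 in Ripk3/Mlkl KO. Its values after Ptpn6 deletion were 11.4, 14.9 and 15.3 in Ripk3 KO, 13.6 and 10.2 in Mlkl KO, with 10.3, 8.44 and 8.26 in Ripk3/Mlkl KO. The deleted libraries were all higher in Ripk3 KO and Mlkl KO (0.64 (SE 0.182) and 0.58 (SE 0.203)) and 2 of 3 were lower than both others in Ripk3/Mlkl KO (-0.44 (SE 0.202)). The Ripk3/Mlkl KO libraries with intact Ptpn6 also serve the comparison with wild type given further on. Mxi1, a repressor of the Myc network and the most abundant target in CPM, measured 174, 205 and 223 CPM in wild type, 211, 221 and 238 in Ripk3 KO, 224, 254 and 259 in Mlkl KO, with 250.5 and 221 in Ripk3/Mlkl KO. Deletion of Ptpn6 left Mxi1 at 192, 261 and 234 in Ripk3 KO, 323 and 293 in Mlkl KO, with 195, 195 and 299 in Ripk3/Mlkl KO. Its Mlkl KO pair alone stood apart, by 0.32 (SE 0.165). The mitophagy receptor Bnip3 lay below 0 in Mlkl KO (-0.40 (SE 0.209)) and Ripk3/Mlkl KO (-0.45 (SE 0.204)). Its relative Bnip3l was at 0.30 (SE 0.162) and -0.02 (SE 0.163). Vegfa, the vascular growth factor, stayed between -0.02 and 0.07, and the histone demethylase Kdm3a between -0.16 and 0.11. Ddit4, an inhibitor of mTORC1, Ankrd37, an ankyrin-repeat protein, and Higd1a, a mitochondrial protein, differed in Mlkl KO by -0.05, 0.03 and -0.28.

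In Mlkl KO after Ptpn6 loss, 22 of the 34 genes were higher in both deleted libraries than in all 3 others, against 18% of all genes, and 2 (Pdk1 and Higd1a) were lower, against 17.8%. In Ripk3 KO there were 5 higher (Slc2a1, Pfkl, Aldoc, Egln3 and P4ha1) and 0 lower, against 3.78% and 5.41% of all genes. In Ripk3/Mlkl KO, 1 was higher (Slc2a1) and 4 were lower (Pdk1, Egln3, Bnip3 and Higd1a), against 6.01% and 7.4%. Library 1 of Ripk3 KO Ptpn6 cKO had the lowest summed neutrophil markers of all libraries, and the enzymes in it were a median 0.42 below their group mean on the log2 scale, 2 of 16 being above it. Without that library, edgeR called 2 of 34 in Ripk3 KO (Slc2a1 and Pfkl, with 0.971% of all genes) and 8 of 34, with 6.45% of all genes, on average over the backgrounds (Slc2a1, Hk1, Pfkl, Aldoc, Tpi1, Gapdh, Pgk1 and Ldha). The sign of the median in Ripk3/Mlkl KO also rested on 1 library, being 0.08 without Ripk3/Mlkl KO replicate 2.

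Ptpn6 lies on chromosome 6 at 124720707 to 124738709 (GRCm38.p6), and 5 of the 34 genes share that chromosome. Tpi1 is 0.072 Mb from it, Gapdh 0.423 Mb, Slc2a3 1.918 Mb, Hk2 41.9 Mb and Kdm3a 53.1 Mb. Mlkl lies on chromosome 8 at 111311255 to 111338479, as do Egln1 (124908587 to 124949254) and Ankrd37 (45996908 to 46000414). Ripk3 lies on chromosome 14 at 55784995 to 55788857, as does Bnip3l (66985238 to 67008877). The part of linkage to an altered gene in the values of all these genes was not tested.

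In the knockouts that kept Ptpn6, oxygen-sensing genes and the 9 hypoxia targets lay further above wild type, by their medians, than most enzymes. Among these, 1 gene, P4ha1, was called. For Ripk3/Mlkl KO the targets' median of 0.29 was close to the 0.28 of upper glycolysis. A separate list of 24 other hypoxia-inducible targets lay near 0. Its median was 0.03 for Ripk3 KO (13 above 0), -0.04 for Mlkl KO (11 above 0) and 0.12 for Ripk3/Mlkl KO (16 above 0). The 3 comparisons with wild type share the wild-type libraries. Each also shares its knockout libraries with the Ptpn6 comparison in that background. A high value in those libraries raises the difference from wild type and lowers the difference after Ptpn6 loss. In Ripk3/Mlkl KO neutrophils P4ha1 rose by 1.04 (SE 0.202, adjusted p = 0.0192), 1 of 34 genes called with edgeR against 1.04% of all genes, with 10 of 34 higher at an unadjusted p under 0.05 (8.6% of all genes) and 3 called by DESeq2, namely P4ha1, Bnip3 and Ankrd37 (2.76% of all genes). That call was lost without any 1 of the wild-type libraries or Ripk3/Mlkl KO replicate 2 (0.75 to 1.13, adjusted p 0.0534 to 0.284), and with library totals alone (0.87, adjusted p = 0.0898). In Mlkl KO, edgeR called 0 of 34 (1.16% of all genes), 10 were higher at an unadjusted p under 0.05 (10.2% of all genes) and DESeq2 called 3, namely Slc2a1, Bnip3 and Ankrd37 (4.95% of all genes). Without Mlkl KO replicate 1, edgeR called Slc2a1 (0.95), Egln3 (0.70) and Bnip3 (0.79), with 3.65% of all genes. In Ripk3 KO, edgeR called 0 of 34 (0.228% of all genes), 8 were higher at an unadjusted p under 0.05 (4.12% of all genes) and DESeq2 called 0. The medians of the 34 were 0.13 in Ripk3 KO, 0.20 in Mlkl KO, with 0.24 in Ripk3/Mlkl KO, beside -0.0028, -0.03 and -0.03 for all genes. With library totals alone they were 0.04, 0.03 and 0.08, beside -0.09, -0.21 and -0.18 for all genes. The median in Ripk3/Mlkl KO was 0.10 without replicate 2 of that group and 0.40 without replicate 3. The numbers above 0 were 28, 28 and 27 of 34, against 49.5%, 47% and 46.5% of all genes.

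Ankrd37 had some of the largest differences, at 0.99 (SE 0.285) in Ripk3 KO, 0.96 (SE 0.286) in Mlkl KO and 1.08 (SE 0.313) in Ripk3/Mlkl KO, from 2.36, 2.59 and 2.27 CPM in wild type. It rested on 57 to 196 estimated counts per library. Bnip3 differed by 0.42 (SE 0.185), 0.62 (SE 0.186) and 0.79 (SE 0.204), and Hif1a by 0.57 (SE 0.236), 0.66 (SE 0.237) and 0.60 (SE 0.261). The lactate exporter Slc16a3 differed by 0.56 (SE 0.220), 0.63 (SE 0.220) and 0.55 (SE 0.243). In Ripk3/Mlkl KO these values rested on replicate 2, without which Hif1a was at 0.12, Slc16a3 at 0.25 and Ankrd37 at 0.67, against 0.95, 0.80 and 1.41 without replicate 3. Gapdh, by contrast, was at 0.00, 0.13 and 0.17, and the median of the 5 lower glycolytic genes was 0.00, 0.13 and 0.17. The 3 oxygen-sensing genes had medians of 0.33, 0.48 and 0.59. Without overlap, 10 of 34 were higher in Ripk3 KO (11.6% of all genes) and 0 lower (7.9%). In Mlkl KO 9 were higher (15%) and 1, Hk2, lower (16.1%), and in Ripk3/Mlkl KO 14 were higher (20%) and 0 lower (19.9%). Macrophage markers moved in the same comparisons: 10 of 10 were above 0 in Mlkl KO (median 0.83) and in Ripk3/Mlkl KO (median 0.81, 1 called), and 5 of 10 in Ripk3 KO. Their summed level was 82.5 to 119 CPM in wild type, 92.6 to 249 in Mlkl KO and 83.1 to 254 in Ripk3/Mlkl KO. Summed markers of proliferating cells stood lower without overlap than the 607 to 685 CPM of wild type. They were at 274 to 484 CPM in Mlkl KO and 390.2 to 480.1 in Ripk3/Mlkl KO. The sum for immature granulocytes stood higher, at 1275 to 1741 and 1235 to 1388 against 1039 to 1229.9 CPM. Most genes of that list went the other way, with 1 of 8 above 0 in Mlkl KO (median -1.42) and 1 of 8 in Ripk3/Mlkl KO (median -1.90). In Ripk3 KO, 12 of 12 B cell markers, 0 of 12 of proliferating cells and 1 of 8 of immature granulocytes (median -1.03) were above 0. Summed B cell markers stood higher there without overlap, at 1349 to 1776 against 1112 to 1233 CPM in wild type. Of the 11 lists, 5 did not overlap in Mlkl KO, 4 in Ripk3/Mlkl KO and 1 in Ripk3 KO. The part of these lists in the values of the 34 genes was not tested.

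**Figure D4:**
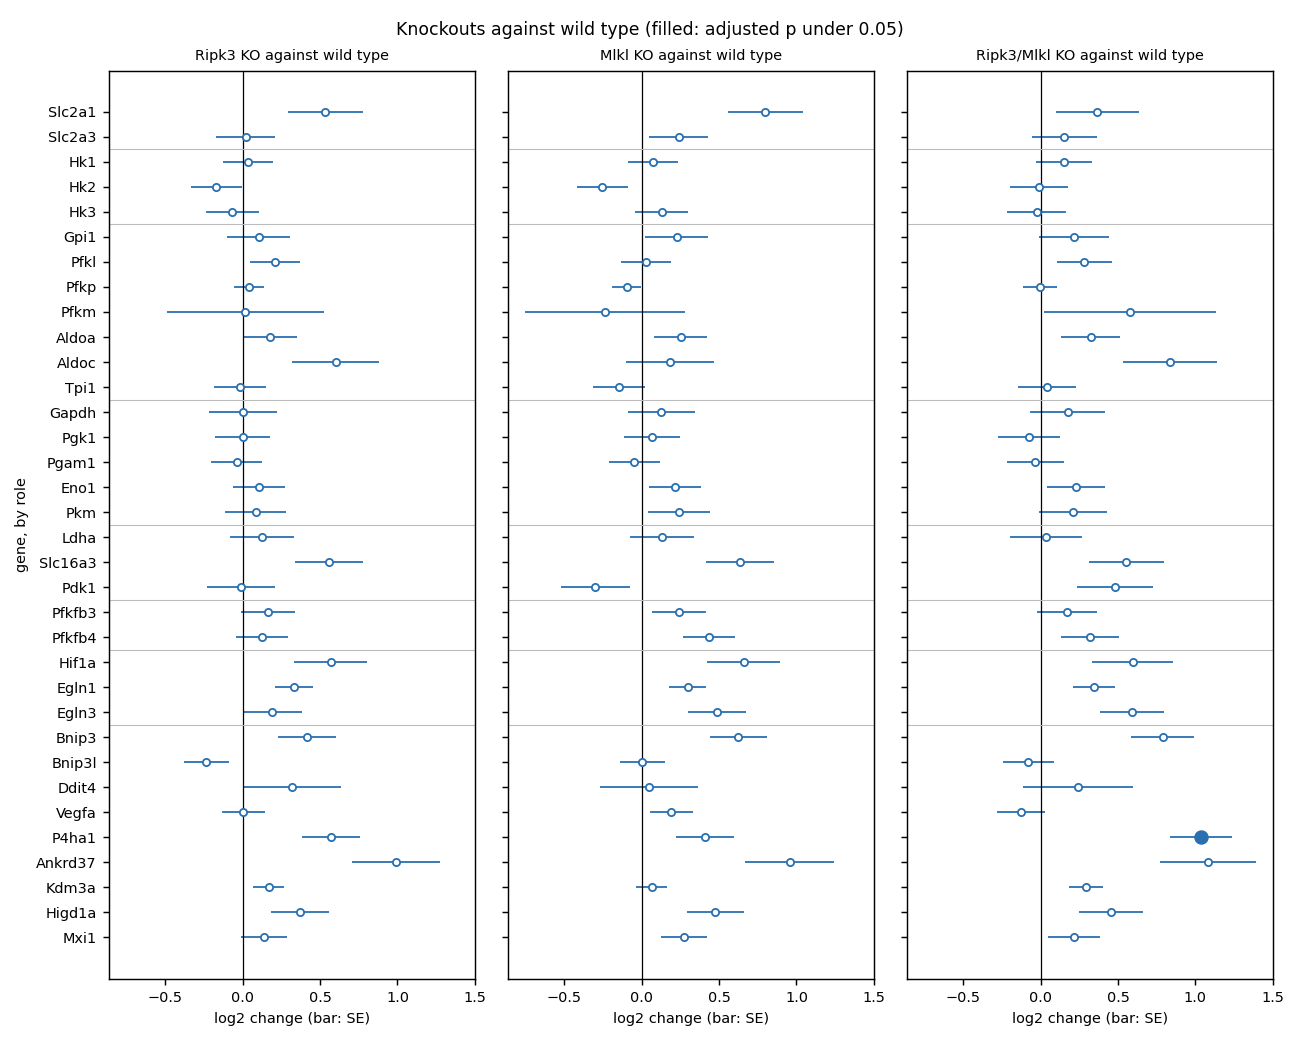
Log2 difference from wild type for each gene (rows, by role) in the 3 knockout groups that kept Ptpn6, with bars for the SE and a filled point for an adjusted p under 0.05. The 1 filled point is P4ha1 at 1.04 in Ripk3/Mlkl KO, and the points of Hif1a, Egln1 and Ankrd37 lie right of 0 in all 3 panels.

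Slc2a1, Hif1a, P4ha1 and Ankrd37 were above all 3 wild-type libraries in each of the 21 other libraries, the inflamed one included, which 1.09% of all genes were. With library totals alone only Slc2a1 was (0.333% of all genes), while Ankrd37 was in 20 of the 21, Hif1a in 18 and P4ha1 in 16.

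Casp8 deletion on top of Ptpn6 loss was compared in 2 settings. In Mlkl KO Ptpn6 cKO the 34 genes lay mostly lower with the Casp8 deletion, and in Ripk3/Mlkl KO Ptpn6 cKO mostly higher. In the first, edgeR called 0 of 34 and 0% of all genes, with 7 of 34 lower and 0 higher at an unadjusted p under 0.05, against 4.68% and 4.67% of all genes, and 1 (Hif1a) called by DESeq2. Of the 34, 6 lay above 0 (54.2% of all genes), and the median was -0.19 (all genes 0.04). It shares the 2 Mlkl KO Ptpn6 cKO libraries with the Ptpn6 comparison in Mlkl KO. In the second, edgeR also called 0 of 34 and 0% of all genes, with 1 of 34 (Aldoc) at an unadjusted p under 0.05, against 4.63% of all genes, and 0 called by DESeq2. Here 29 of 34 lay above 0 (44.2% of all genes), with a median of 0.22 (all genes -0.04). This second comparison shares the Ripk3/Mlkl KO Ptpn6 cKO libraries with the Ptpn6 comparison in Ripk3/Mlkl KO. Hif1a measured 167 and 123 CPM in Mlkl KO Casp8 cKO Ptpn6 cKO and 293 and 322 in Mlkl KO Ptpn6 cKO, a difference of -1.07 (SE 0.291) with no overlap. Slc16a3 measured 645 and 607 against 1053 and 1007 CPM, also with no overlap (-0.71 (SE 0.270)). Slc2a1 measured 139 and 92.4 against 183 and 180.2 CPM, P4ha1 7.16 and 8.26 against 13.6 and 10.2 CPM and Aldoc 2.45 and 2.56 against 4.70 and 3.71 CPM. In all 3 of these genes the groups did not overlap. In total 20 of 34 were lower without overlap, against 20.2% of all genes, and 1 (Higd1a) was higher, against 20.9%.

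Cell type markers moved here too, with 6 of 11 lists not overlapping. Monocyte markers stood at 1188 to 1244 CPM with the Casp8 deletion against 1530.3 to 1534 without it, basophil and mast cell markers at 1659.6 to 1758 against 2194 to 2359, immature granulocyte markers at 1104 to 1394 against 1557 to 1631, and erythroid markers at 768 to 3474 against 4352 to 6649. Those figures are summed levels. Most genes of the basophil and mast cell list went the other way, with 7 of 9 above 0 (median 0.45). So did 6 of 8 in the immature granulocyte list (median 0.32). In the monocyte and erythroid lists, 0 of 9 and 0 of 14 were above 0. The part of these lists in the differences above was not tested.

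Where Ripk3 was absent too, most of these genes lay higher with the Casp8 deletion. In Ripk3/Mlkl KO Casp8 cKO Ptpn6 cKO, Hif1a measured 141 and 139.7 CPM, inside the range of Ripk3/Mlkl KO Ptpn6 cKO. Aldoc measured 3.14 and 4.16 CPM, above all 3 of those libraries (0.88 (SE 0.294)), as did Pfkl at 33.5 and 32.9 CPM (0.35 (SE 0.179)), Slc2a1 at 106 and 112 CPM (0.35 (SE 0.268)) and Gapdh at 3047 and 3458 CPM (0.50 (SE 0.242)). P4ha1 at 10.8 and 9.80 CPM overlapped. Without overlap 11 of 34 were higher, against 7.68% of all genes, and 0 lower, against 7.02%. When the difference between the Casp8 effects without and with Ripk3 KO was itself tested with edgeR's quasi-likelihood test, Aldoc had 1.61 (SE 0.439, adjusted p = 0.387) and Slc16a3 had 1.13 (SE 0.363, adjusted p = 0.431), and neither was called. Gapdh measured 3414 and 3341 CPM in Mlkl KO Casp8 cKO Ptpn6 cKO and Pfkl 23.04 and 34.3 CPM, both groups below those of Mlkl KO Ptpn6 cKO, while Pgk1 at 538 and 609.6 CPM overlapped. Pgk1 at 438 and 489 CPM in the group without Ripk3 overlapped its comparison group too. Erythroid markers stood lower with the Casp8 deletion in that setting, at 1503 to 1563 against 2463 to 5021 CPM, and their part was not tested.

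The inflamed Casp8 cKO Ptpn6 cKO library was the only 1 of its genotype, so its values have no replicate check. Of the 34 genes, 9 were at least 2-fold above the wild-type mean, against 4.03% of all genes, and 0 at least 2-fold below, against 10.8%. They were Aldoc (3.77-fold), Ankrd37 (3.49-fold), Slc2a1 (3.08-fold), Slc16a3 (3.002-fold), Hif1a (2.71-fold), Pfkl (2.34-fold), Ldha (2.26-fold), P4ha1 (2.10-fold) and Egln3 (2.05-fold). In this library 11 of the 34 exceeded all 23 replicated libraries (3.79% of all genes), among them Slc16a3 at 1182 CPM, Gpi1 at 2655 CPM, Pfkl at 49.6 CPM and Aldoc at 4.95 CPM. Gapdh at 3889 CPM, Hif1a at 264 CPM and Pgk1 at 609 CPM were exceeded by other libraries. Slc2a1 at 173 CPM and P4ha1 at 12.4 CPM were too. With library totals alone 5 genes were at least 2-fold above wild type, and 7 exceeded all 23. This library's 15 neutrophil markers summed to 146244 CPM, above the wild-type range of 85073 to 98804 CPM, and their part in these values was not tested.

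Beyond the group means, the enzymes moved together from library to library. The deviations from group means over the 23 libraries gave a median Pearson r of 0.66 over the 120 pairs of 16 enzymes, 0.19 over the 36 pairs of hypoxia targets and -0.0039 over all genes. Between enzymes and hypoxia targets it was 0.18 over 144 pairs. Gapdh was closest to Eno1 and Pkm (both r = 0.98), and its r with P4ha1 was 0.20. Pfkm (-0.56) and Pdk1 (-0.50) ran against Gapdh. These values describe libraries that share groups, depth and cell content. The sets also differ in counts. Gapdh had 46273 to 80780 estimated counts per library, whereas the targets Ankrd37, Higd1a and P4ha1 had 57 to 196, 101 to 178 and 116 to 373. Among the enzymes, Aldoc (24 to 97) and Pfkm (11 to 93) were low too. The part of counting noise in the lower r of the targets was not tested.

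Enzyme levels also tracked the neutrophil markers. The 16 enzymes summed to 7756 CPM in Ripk3 KO Ptpn6 cKO replicate 1, which also had the lowest summed neutrophil markers (67661 CPM), and to 15936 CPM in the highest library, in Mlkl KO Ptpn6 cKO. Of 24 libraries, the 8 highest in enzymes were the 8 highest in neutrophil markers, 7 of them were among the 8 lowest in B cell markers, and 6 of the 8 lowest in enzymes were among the 8 lowest in neutrophil markers. Both sums carry the same TMM scaling of each library, which moves them together. As an unscaled share of counts, enzymes took 1.19% in Ripk3 KO Ptpn6 cKO replicate 3 and 1.20% in Ripk3/Mlkl KO Casp8 cKO Ptpn6 cKO replicate 1. Both were above the 1.15% of Mlkl KO Casp8 cKO Ptpn6 cKO replicate 1, while their neutrophil marker ranks were 17 and 16 against 2. The match was not checked with unscaled sums of both. In Mlkl KO the neutrophil markers summed to 91153 to 106860 CPM, and in Mlkl KO Ptpn6 cKO to 144115 to 155995 CPM, with 14 of 15 markers above 0 (median 0.58, 0 called). In Ripk3 KO the figure was 8 of 15 (median 0.02) and in Ripk3/Mlkl KO 7 of 15 (median -0.01). As a share of estimated counts the enzymes took 1.28% ± 0.00679 (SD, n = 2) in Mlkl KO Ptpn6 cKO, 0.998% ± 0.0411 (SD, n = 3) in Mlkl KO, and 1.36% in the inflamed library. The part of cell content in the differences of the 34 genes was not tested.

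**Figure D5:**
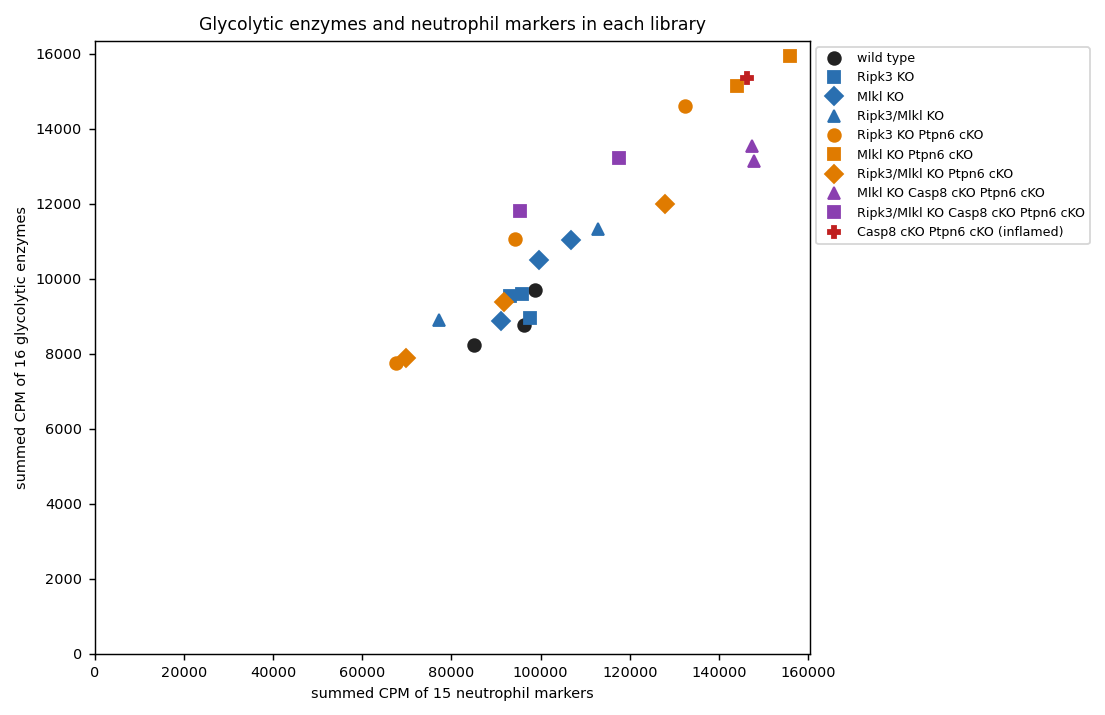
Summed CPM of 16 glycolytic enzymes against summed CPM of 15 neutrophil markers, 1 point per library, by group. The points of Mlkl KO Ptpn6 cKO, between 15127 and 15936 CPM of enzymes, lie at the upper right with the inflamed library, and the lowest point is Ripk3 KO Ptpn6 cKO replicate 1 at 7756 CPM.

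Genes of neighbouring pathways were taken from lists of their own. After Ptpn6 loss in Mlkl KO, 1 of 8 tested genes of the pentose phosphate pathway rose and 0 fell with edgeR, and 2 of 17 genes of glycogen metabolism rose and 0 fell, where 1.51% of all genes were called. They were G6pdx, the glucose 6-phosphate dehydrogenase that makes NADPH for the oxidative burst (1.31 (SE 0.313, adjusted p = 0.0444)), Gyg, the glycogenin that primes glycogen (1.45 (SE 0.299, adjusted p = 0.0292)), and Pgm1, which links glycogen to glycolysis (0.85 (SE 0.205, adjusted p = 0.0449)). G6pdx measured 558, 721 and 735 CPM in Mlkl KO and 1376 and 1959.9 in Mlkl KO Ptpn6 cKO, and Gyg 139, 162 and 169.8 and 386 and 474 CPM, with no overlap in either gene. Averaged over backgrounds, G6pdx (0.74), Gyg (0.71) and Pfkfb2 (0.68), a further fructose 2,6-bisphosphate enzyme and 1 of 13 tested other isoforms, rose (1.55% of all genes called). Against wild type, Mlkl KO had higher Mpc1 of the mitochondrial pyruvate carrier (0.53 (SE 0.119, adjusted p = 0.0329)), 1 of 14 tested genes of pyruvate entry, and Ndrg1, a known hypoxia-inducible gene (0.62 (SE 0.135, adjusted p = 0.0271)), 1 of 24 tested other targets, with 1.16% of all genes called. Of the 5 fits without 1 library, G6pdx and Pgm1 kept their call in Mlkl KO in 0 and Gyg in 1 (without Mlkl KO Ptpn6 cKO replicate 1), and 2 to 191 of all genes were called in those fits. Of 16 such fits, the averaged calls of G6pdx and Gyg held in 3 and that of Pfkfb2 in 5. Of 6 fits, those of Mpc1 and Ndrg1 held in 1, the one without Mlkl KO replicate 1. Any difference among the 9 groups was called for Gyg and for Ldhb, the other lactate dehydrogenase subunit (adjusted p = 0.0403), which held in 5 and 7 of 23 fits without 1 library. None of 12 tested regulators of the hypoxia-inducible factor passed with edgeR in any comparison, the smallest p in the test over all groups being those of Crebbp (adjusted p = 0.0598) and Rbx1 (0.118).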

How the data were processed

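Bulk messenger RNA libraries of mouse bone marrow neutrophils were read with paired reads of 100 bases, per the labels' protocols. The authors deposited estimated counts per gene. The submitters' processing notes name Salmon 0.14.1, DESeq2 and the build GRCm38.p6, and the way transcripts were combined into genes is not given in the sources used here. The deposited estimated counts carry no scaling for depth or length and were rounded to whole numbers. All 25 columns matched a sample.

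Groups came from the genotype labels. A library whose title and genotype labels conflict entered no comparison. The single Casp8 cKO Ptpn6 cKO library was described with no test. One edgeR 4.0.16 fit (R 4.3.3, TMM scaling) held the remaining 23 libraries of 9 groups. Genes were kept by filterByExpr with a count of at least 10 and a total of at least 15, and tested by quasi-likelihood with 14 residual degrees of freedom. Calls used an adjusted p (Benjamini-Hochberg over 16206 genes) under 0.05 in 11 comparisons. CPM were computed on TMM-scaled library sizes of the 25 libraries together. The code was tested on simulated data. DESeq2 1.42.0 was an alternative, as were other scaling, no filter, a replicate block, fits of the compared libraries alone and leaving out each library. Replicate numbers were not taken to pair libraries: in no comparison with 3 shared numbers did every same-numbered pair deviate together (r above 0.1). With only 2 shared numbers, both pairs did in Ripk3/Mlkl KO against wild type (r of 0.17 and 0.19). For Casp8 deletion in Mlkl KO Ptpn6 cKO r was 0.15. There both groups have 2 libraries, so both pairs must give the same r and count as 1 value.

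The genes, lists and comparisons were chosen with earlier results of these data known. Values in every library are given for genes called in any comparison, the 8 with the smallest p over the 9 groups, and the highest in CPM of each role. Neighbouring pathway genes were named where called, else by smallest p. Exon lengths and positions came from the annotation of GRCm38.p6 and promoters from RefSeq. Figures were drawn with matplotlib 3.10.9 in Python 3.11.15.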

Additional observations from a re-analysis of the deposited data

How the results depend on the processing

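Of 1097 single-gene results under alternatives, 979 kept their direction and their side of the threshold, 65 lost a call, 52 gained one and 1 reversed, namely Pfkp after Ptpn6 loss in Mlkl KO, at -0.0081 with library totals without TMM. These were refits of 79 results, taken at an unadjusted p under 0.05, or at an adjusted p under 0.05 in tests over several groups. Most of the 79 were not called in the main fit, so they had no call to lose. The 979 therefore do not measure how often a call held. Of 112 medians, 106 moved by less than the spread between replicates, and 1 reversed, that of Ptpn6 loss in Ripk3/Mlkl KO without Ripk3/Mlkl KO replicate 2 (0.081, against -0.24 without replicate 3 of that group). Counts of called genes moved more. After Ptpn6 loss in Mlkl KO, 4 were called without the filter on low counts (1.31% of all genes), 10 with only the libraries compared (3.65%) and 9 with DESeq2 (4.72%). Averaged over backgrounds, 0 were called with only the libraries compared (0.138% of all genes) and 4 with DESeq2 (4.13%), and by background 1 with DESeq2 (0.197%). Over the 9 groups, 10 were called without the filter (2.63%), 1 with library totals (0.981%) and 18 with DESeq2 (16%). Against wild type, only the libraries compared gave 4 in Mlkl KO (6.06%), 4 in Ripk3/Mlkl KO (5.49%) and 1 in Ripk3 KO (1.24%), DESeq2 gave 3 (4.95%) in Mlkl KO and 3 (2.76%) in Ripk3/Mlkl KO, and library totals gave 0 (0.537%) in Ripk3/Mlkl KO. For Casp8 deletion in Mlkl KO Ptpn6 cKO, DESeq2 called 1 (0.555% of all genes). Library totals gave 5 genes at least 2-fold above wild type in the inflamed library, 7 above all 23 libraries, and 1 above wild type in every other library. The cause of these changes was not tested.

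Leaving out 1 library gave 0 to 2 called genes for Ptpn6 loss in Ripk3 KO, 0 to 0 in Mlkl KO and 0 to 8 averaged. It gave 0 to 3 for Mlkl KO and 0 to 1 for Ripk3/Mlkl KO against wild type, and 0 to 20 over the 9 groups, where 0.341% to 20.5% of all genes were called. Genes at least 2-fold up in the inflamed library were 7 to 9, and genes above wild type in every other library 4 to 5. With the replicate number as a block, 4 genes were called after Ptpn6 loss in Mlkl KO (2.05% of all genes), Pgk1 (0.72) and Ldha (0.86) being added, and Ldha (0.47) was added to the averaged calls. No other call among the 34 genes changed with the block. Of 179 results of neighbouring pathway genes, 76 kept their call and 103 lost it, with none reversed, and Ldhb lost its call with the block (adjusted p = 0.0547).

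Library totals without TMM shifted the median of all genes by -0.26 for Ptpn6 loss in Mlkl KO, -0.18 for Mlkl KO and -0.15 for Ripk3/Mlkl KO against wild type, 0.10 for Casp8 deletion in Mlkl KO Ptpn6 cKO and -0.36 for the inflamed library. Relative to that median, the 34 genes stood at 0.46 after Ptpn6 loss in Mlkl KO under either scaling, at 0.23 in Mlkl KO and 0.27 in Ripk3/Mlkl KO. Scaling by library totals, the counts above all 23 libraries and above wild type in every other library under alternatives, and the alternatives for neighbouring pathway genes were chosen after seeing the data. Groups of 2 or 3 libraries set the precision.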

Other observations

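One library carries labels that conflict: its title names the Ripk3/Mlkl KO group and its genotype label names Mlkl KO Ptpn6 cKO. It measured 583 CPM of Ptpn6, inside the 487 to 706 of libraries without the deletion and above the 119 to 315 of those with it. Ripk3 was at 0.0880 CPM, inside the range of its knockouts (at or below 0.153) and below all others (at or above 2.51). Both values go with the title and not with the genotype label. All 34 genes in it lay inside the range of the 23 replicated libraries. Slc2a1 was at 87.3 CPM, Pfkl at 26.6 CPM, Aldoc at 2.60 CPM, P4ha1 at 11.3 CPM, Hif1a at 131 CPM and Gapdh at 2481 CPM.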
